A study of Mus musculus with 40 samples.

Results

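Proliferating cells switch on a shared programme of genes, and 51 such genes of the cell cycle and of DNA replication were followed here among the 37310 genes of the table. They were listed by name for their roles, with earlier results of these data known. Of these genes, 11 encode the replicative helicase and the factors that license replication origins, 6 supply nucleotides or act at the replication fork, 6 are G1/S cyclins and transcription factors, 14 are mitotic cyclins, kinases and their partners, 8 are kinesins and spindle proteins and 6 belong to the kinetochore or to mitotic chromosomes. All 51 passed the filter on low counts that left 15630 genes for testing.

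RNA sequencing covered mouse lungs from the strains SWR/J and A/J (labelled SWJ and AJ), which develop squamous lesions of the airway after topical N-nitrosotris-(2-chloroethyl)urea (NTCU), an alkylating carcinogen. The study bought female mice and began treatment in young adults. Tissue was either laser-capture-microdissected (LCM) from a section, so that airway or lesion cells were enriched, or a whole lung section. Of 40 samples, 25 passed the quality control recorded in the labels, 13 by LCM and 12 from whole lung, with summed expected counts from 2667387 to 16534728 per sample. The normal group held 7 samples from mice given the acetone vehicle (0 µmol NTCU), 4 SWR/J and 3 A/J. Mild dysplasia held 5 SWR/J samples at a total dose of 15 µmol and no A/J sample. The high-grade group held 13 samples: 9 of moderate to severe dysplasia (14 µmol in 3 A/J samples, 25 or 30 µmol in 6 SWR/J samples), 2 of severe dysplasia (50 µmol, SWR/J), 1 carcinoma in situ and 1 squamous cell carcinoma (SCC) tumor (20 µmol each, A/J). Doses are those of the labels, and the methods of the study name fewer doses than the labels do. Dose, strain and grade cannot be told apart for several grades. The labels do not tie samples to animals, so 2 samples may share a mouse and p-values measure only the spread between these samples. Mild dysplasia replicate 5 carries a description of normal histology and normal replicate 10 a description of mild dysplasia, and the grade field was used for both; replicate numbers run in accession order over all samples collected and only name a sample.

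Cells preparing for division load the MCM helicase at origins before S phase and build cyclin E activity and E2F transcription factors in late G1. Origins fire in S phase. The cells then express cyclins A and B, Aurora and Polo kinases, kinesins and kinetochore proteins for mitosis. Most cells of a resting adult airway and lung are outside the cycle, whereas basal cells, dysplastic epithelium and developing lymphocytes divide. The early genes are classically bound by E2F factors at promoters, and the late genes by the DREAM and B-MYB complexes through a cell cycle homology region (CHR) that often lies near CCAAT boxes.

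The promoter sequences are shown because S phase and mitotic genes were compared with each other throughout. RefSeq windows on GRCm38.p6, which is not the mm9 build of the counts, were available for 41 of the 51 genes and ran from 250 bases before to 50 after the transcription start. The search covered both strands for TTTGAA (CHR), CCAAT, and the E2F words, which were TTCCCGC and its variants TTGGCGC and also TTCGCGC and lastly TTGCCGC; overlapping matches run together, as the CCAAT and E2F words can. The 150 bases before the start are printed below, 5′ to 3′ on the gene's strand, with every match in capitals, for 4 mitotic genes and then 4 S phase genes.
Mki67 (chr7:135716380-135716529, minus strand): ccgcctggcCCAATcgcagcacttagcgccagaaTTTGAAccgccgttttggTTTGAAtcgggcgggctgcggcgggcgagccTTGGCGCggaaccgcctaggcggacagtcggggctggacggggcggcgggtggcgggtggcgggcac
Top2a (chr11:99024190-99024339, minus strand): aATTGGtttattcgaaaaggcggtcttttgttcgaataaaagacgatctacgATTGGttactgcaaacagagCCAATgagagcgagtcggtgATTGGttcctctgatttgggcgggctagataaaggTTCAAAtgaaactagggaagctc
Cdk1 (chr10:69352913-69353062, minus strand): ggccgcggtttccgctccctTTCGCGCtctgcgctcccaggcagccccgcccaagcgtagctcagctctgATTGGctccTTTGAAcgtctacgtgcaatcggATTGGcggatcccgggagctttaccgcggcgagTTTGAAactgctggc
Cdc20 (chr4:118437344-118437493, minus strand): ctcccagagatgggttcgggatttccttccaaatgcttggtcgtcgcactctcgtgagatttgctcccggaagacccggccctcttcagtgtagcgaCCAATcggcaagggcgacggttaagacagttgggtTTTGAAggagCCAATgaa
Mcm6 (chr1:128359706-128359855, minus strand): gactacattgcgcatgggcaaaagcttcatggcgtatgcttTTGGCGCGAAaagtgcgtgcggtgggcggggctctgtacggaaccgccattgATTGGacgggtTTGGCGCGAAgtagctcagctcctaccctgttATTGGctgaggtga
Mcm5 (chr8:75109359-75109508, plus strand): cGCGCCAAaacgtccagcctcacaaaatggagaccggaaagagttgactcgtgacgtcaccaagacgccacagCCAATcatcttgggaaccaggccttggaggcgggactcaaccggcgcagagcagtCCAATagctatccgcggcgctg
Pcna (chr2:132253181-132253330, minus strand): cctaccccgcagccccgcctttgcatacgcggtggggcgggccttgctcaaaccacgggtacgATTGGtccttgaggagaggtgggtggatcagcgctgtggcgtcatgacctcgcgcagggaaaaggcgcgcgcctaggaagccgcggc
Rrm2 (chr12:24708104-24708253, plus strand): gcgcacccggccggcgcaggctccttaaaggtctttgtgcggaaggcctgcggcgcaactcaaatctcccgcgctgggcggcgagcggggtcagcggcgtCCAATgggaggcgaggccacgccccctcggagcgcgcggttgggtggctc

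The printed windows of Mki67 and Cdk1 each held 2 TTTGAA words, and none was present in those of Mcm6, Mcm5, Pcna and Rrm2. Mcm6 held 4 overlapping E2F words in 2 clusters. Over the whole windows, TTTGAA occurred in 16 of 23 genes of a mitotic set (69.6%), in 1 of 9 genes of an S phase set (11.1%) and in 18.1% of all 27025 promoters. An E2F word occurred in 6 of those 9 S phase genes (66.7%), in 3 of the 23 mitotic genes (13%) and in 9.69% of all promoters. A CCAAT box stood in 9 of 9 S phase windows, in 17 of 23 mitotic windows (73.9%) and in 37.9% of all promoters. The mitotic set was the 28 genes of the 3 mitotic roles, and the S phase set was Mcm2 to Mcm7, Mcm10, Gins1, Gins2, Rrm1, Rrm2 and Pcna, of which 9 had a window. These matches describe letters in a window and not bound sites.

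Levels are given as log2 CPM, the expected counts of a gene relative to its library total after TMM scaling, with a prior count of 2 added, so that 1 unit is a doubling. Across the 25 samples the genes moved together over a wide range. The mean of the 28 mitotic genes, each centred on its own mean over all samples, ran from -2.09 in moderate to severe dysplasia replicate 9 to 1.98 in moderate to severe dysplasia replicate 4, and that of the 12 S phase genes from -1.20 to 1.67 in the same samples. Both extremes therefore lay within 1 grade. The SD over the 25 samples was smallest for Rrm1 (0.59), which encodes the large subunit of ribonucleotide reductase, and Ccne2 (0.62), cyclin E2, and largest for Cenpe and Mki67 (1.58 each), 2 genes of the mitotic chromosome. In the mm9 gene models all 51 are protein coding. Mki67 lies at chr7:142881471-142908062 (minus strand), Top2a at chr11:98854257-98885503 (minus), Birc5 at chr11:117710565-117717069 (plus), Cenpe at chr3:134875527-134936504 (plus), Mcm2 at chr6:88833469-88848774 (minus) and Pcna at chr2:132074898-132079050 (minus).

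**Figure D1:**
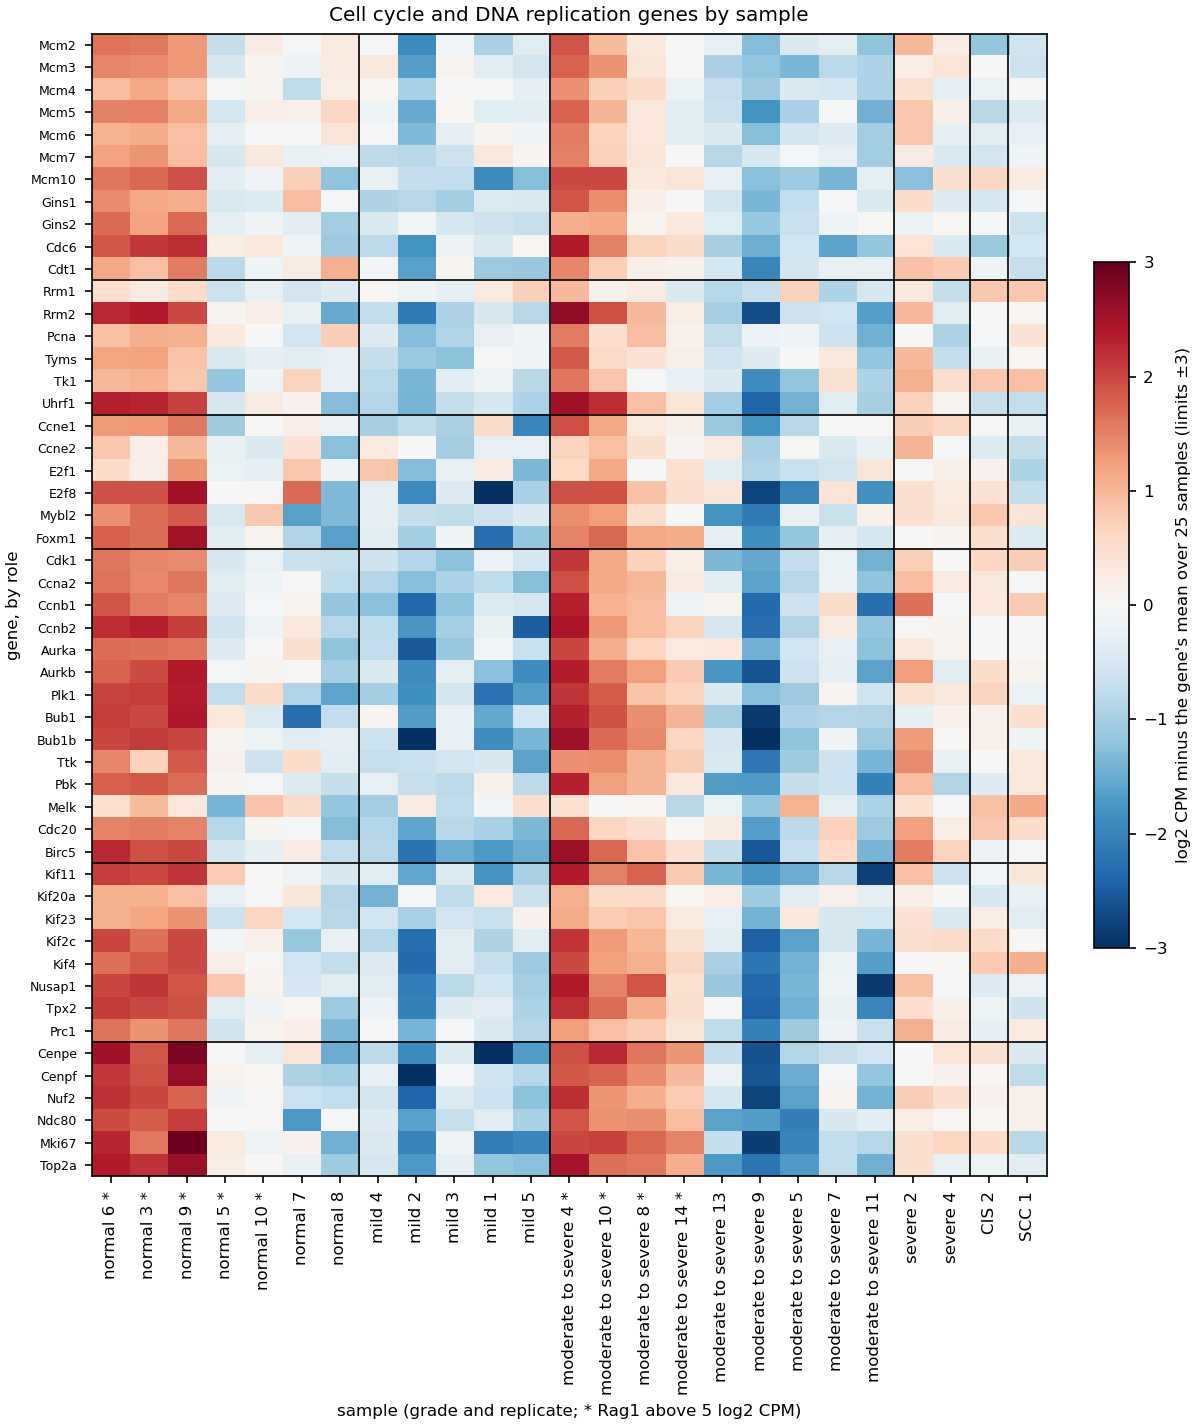
Heat map of the 51 genes (rows, grouped by role) in 25 samples (columns, by grade and, within a grade, by falling Rag1); colour is log2 CPM minus the gene's mean, cut at ±3, and an asterisk marks Rag1 above 5 log2 CPM. The asterisked columns at the left of the normal and of the moderate to severe blocks hold the highest values, up to a mitotic mean of 1.98 in moderate to severe dysplasia replicate 4, and the mitotic means of the 5 mild samples lie between -1.69 and -0.60.

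Against the 7 normal samples, 3 by LCM and 4 from whole lung, 20 of the 51 genes were lower and 0 were higher in mild dysplasia (edgeR quasi-likelihood test, adjusted p under 0.05 over all genes, with the median transcript integrity number (TIN, an RNA quality measure), strain and sample type in the model). Over all 15630 genes, 7.24% were called lower and 5.21% higher in that comparison. The median log2 fold change was -1.99 over the 51 genes and -0.02 over all genes, and 50 of 51 values were negative. Lower genes were found among 7 of 14 mitotic cyclins and kinases, 5 of 11 helicase and licensing genes, 3 of 6 nucleotide and fork genes, 3 of 6 kinetochore and chromosome genes, 1 of 8 kinesin and spindle genes and 1 of 6 G1/S genes. The count depended on single samples, from 0 without normal replicate 3 to 32 without normal replicate 5 or 7, and was 3 (Plk1, Birc5 and Cenpe) without the 2 samples whose labels disagree (3.22% of all genes); DESeq2 called 39 (12.7% of all genes lower). With LCM samples alone and with whole lung samples alone 0% of all genes were called lower, the 51 among them, and the medians over the 51 were -1.99 and -1.95. Markers of thymocytes and T cells were lower in the same samples, with summed thymocyte markers at 5.39 to 79.5 CPM in mild dysplasia and 110 to 5096 CPM in normal tissue.

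Among the mitotic kinases and their partners, Birc5 encodes survivin of the chromosomal passenger complex. In mild dysplasia its level was 2.31, 1.83, 2.56, 3.18 and 2.56 log2 CPM in replicates 1, 2, 3, 4 and 5, and in normal samples the lowest, median and highest were 3.30, 4.27 and 6.30. All 5 mild samples thus lay below all 7 normal samples, the one such gene of the 51. Of all genes tested 0.896% showed this pattern, so 1 gene of 51 is near the background. High-grade samples spanned 1.48 to 6.63, with a median of 4.50, and overlapped both groups. The log2 fold change of Birc5 in mild dysplasia was -3.16 (SE 0.82, adjusted p = 0.0243, edgeR quasi-likelihood test).

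Plk1, the Polo-like kinase that acts at centrosomes and kinetochores, was at 0.57, 0.95, 2.22, 1.75 and 1.13 log2 CPM in mild dysplasia replicates 1 to 5. Its normal values ran from 1.21 to 5.13 with a median of 3.35, so that 3 normal samples lay within the mild range, and the log2 fold change was -3.06 (SE 0.79, edgeR adjusted p = 0.0242). Cyclin-dependent kinase 1 (Cdk1), which drives entry into mitosis, did not pass the test. Its levels in the 5 mild samples were 4.17, 3.47, 3.13, 3.73 and 3.83 against 3.65 to 5.95 in normal tissue (median 4.15), and its log2 fold change was -1.58 (SE 0.64, edgeR adjusted p = 0.0966). Ccnb1, cyclin B1, was at 3.26, 1.32, 2.46, 2.41 and 3.16 in mild dysplasia, with normal values of 2.50 to 5.55 around a median of 3.77. Its log2 fold change of -2.23 (SE 0.76, edgeR adjusted p = 0.0543) lay just outside the threshold, whereas Ccnb2, cyclin B2, passed at -2.71 (SE 0.80, edgeR adjusted p = 0.0332).

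Other kinases and regulators of this role that were lower were Bub1b, a spindle checkpoint kinase (-3.01), Aurka, the Aurora kinase of the spindle poles (-2.01), Ccna2, cyclin A2 (-1.99), and Cdc20, an activator of the anaphase-promoting complex (-1.98). The 14 genes of the role ran from -3.16 to -0.51, with Melk closest to 0.

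On mitotic chromosomes and kinetochores, Cenpe, a kinetochore motor, had the most negative change of all 51 genes. It stood at -0.24, 0.98, 2.47, 2.10 and 1.21 log2 CPM in mild dysplasia replicates 1 to 5 and between 1.41 and 5.72 in normal samples (median 3.29), with a log2 fold change of -3.26 (SE 0.89, edgeR adjusted p = 0.0275). Mki67, the Ki-67 antigen used to stain cycling cells, was at 3.65, 3.72, 5.60, 5.29 and 3.77 in mild dysplasia. Its normal levels were 4.29 to 8.67 with a median of 6.03, and those of high-grade samples 2.90 to 7.79 with a median of 6.22. The 3 mild LCM samples lay between 3.65 and 3.77 and the 2 whole lung samples at 5.29 and 5.60, so that sample type split the mild group for this gene. The log2 fold change of Mki67 was -2.68 (SE 0.89, edgeR adjusted p = 0.0514), just outside the threshold.

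Top2a, the topoisomerase that untangles replicated chromosomes, was at 4.36, 3.78, 5.21, 4.995 and 4.26 log2 CPM in mild dysplasia and at 4.44 to 8.10 in normal samples, around a median of 5.72. It was called at a log2 fold change of -2.70 (SE 0.89, edgeR adjusted p = 0.0498), on the threshold. Nuf2 of the kinetochore (-2.46) and Kif11, the kinesin that separates spindle poles (-2.62), were also lower, and the remaining 7 kinesin and spindle genes were not called.

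In mild dysplasia the median change was smaller over the S phase set than over the mitotic set. Single genes of the sets overlapped, and the difference was not tested. Mcm2, a subunit of the MCM helicase, was at 3.54, 2.59, 4.41, 4.44 and 4.13 log2 CPM in mild dysplasia, 3.78 to 6.12 in normal tissue (median 4.79) and 3.20 to 6.39 in high-grade tissue (median 4.24). Its log2 fold change in mild dysplasia was -1.93 (SE 0.57, edgeR adjusted p = 0.0334). Mcm6, another subunit and the one whose promoter window held the most E2F words of those printed, did not pass: its mild levels of 5.52, 4.09, 5.16, 5.37 and 5.29 lay within or below the normal range of 5.16 to 6.53. For Mcm6 the log2 fold change was -1.13 (SE 0.44, edgeR adjusted p = 0.0818). Mild dysplasia replicate 2 had the lowest level of both genes.

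Also lower were Mcm10, which helps to assemble the fork (-2.26), Gins1 of the GINS complex (-1.84), the licensing factor Cdt1 (-1.74) and Mcm5 (-1.71). Pcna, the sliding clamp of DNA polymerases, was at 6.37, 5.32, 5.70, 6.22 and 6.50 log2 CPM in mild dysplasia and at 6.04 to 7.70 in normal samples, with a median of 7.36. Its log2 fold change was -1.34 (SE 0.42, edgeR adjusted p = 0.0424), the smallest among the called genes. Rrm2, the regulated subunit of ribonucleotide reductase, showed the largest change of the nucleotide genes. Mild samples held 3.95, 2.31, 3.52, 3.69 and 3.58 against 2.91 to 6.82 in normal tissue (median 4.64), a log2 fold change of -2.76 (SE 0.86, edgeR adjusted p = 0.0424), while its partner Rrm1 had 0.06 (SE 0.38). Uhrf1, which maintains DNA methylation at forks, was lower at -2.68 (SE 0.86, edgeR adjusted p = 0.0455).

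Of the G1/S genes, E2f8, a repressive E2F factor, was the one called (-2.93, SE 0.91, edgeR adjusted p = 0.0404). Ccne1, cyclin E1, stood at 3.02, 1.68, 1.48, 1.45 and 0.48 log2 CPM in mild dysplasia and at 1.37 to 4.03 in normal samples, with a log2 fold change of -1.59 (SE 0.64, edgeR adjusted p = 0.0915). E2f1, the activator of many S phase genes, was at 3.46, 1.90, 2.99, 4.04 and 1.86 against 2.91 to 4.53. Its groups overlapped widely, and its log2 fold change was -0.48 (SE 0.40, edgeR adjusted p = 0.413).

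**Figure D2:**
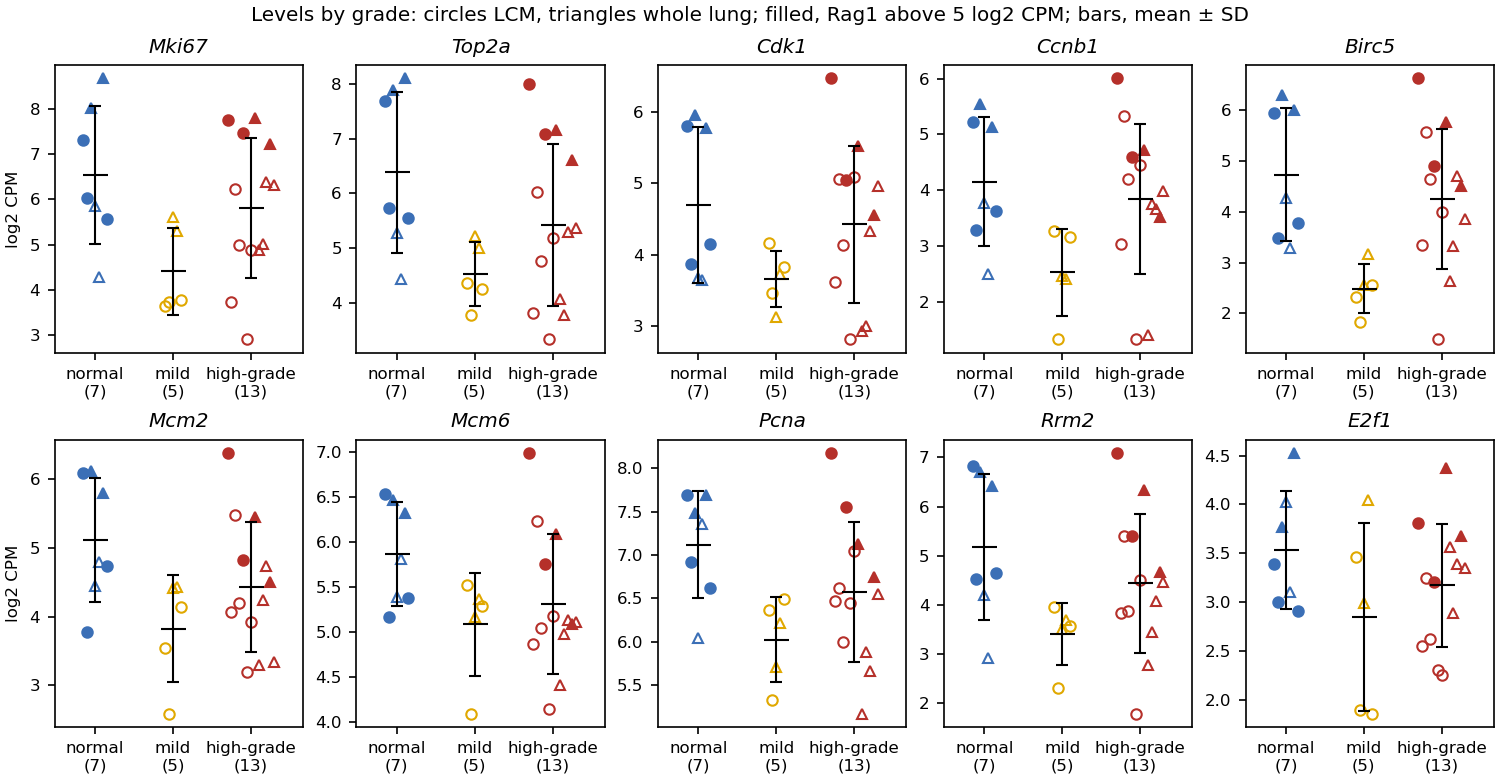
Levels (log2 CPM) of 10 genes in normal (7), mild dysplasia (5) and high-grade (13) samples, each point a sample, with the mean ± SD; axes differ between panels and do not start at 0. Birc5 is the gene whose mild samples (1.83 to 3.18) all lie below the normal ones (3.30 to 6.30). This pattern was shown by 0.896% of all genes tested. Filled points, with Rag1 above 5 log2 CPM, hold the highest normal value in every panel.

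High-grade tissue did not differ detectably from normal tissue in any of the 51 genes: 0 were called by edgeR, 0 had an unadjusted p under 0.05 and 0 were called by DESeq2. Calls were rare over all genes in this comparison (0.0192%). The log2 fold changes were negative for 50 of 51 genes with a median of -0.41, against -0.01 over all genes. They ran from -0.84 for Cdc6, an origin licensing ATPase (SE 0.59), and -0.78 for E2f8 (SE 0.60) to 0.14 for Rrm1 (SE 0.30), and the median SE of 0.50 exceeded the median change in size. The direction was not stable: 42 of 51 values were positive with the thymocyte score described below in the model (median 0.25) and 26 were positive with LCM samples alone (median 0.01) or without the 9 samples with high Rag1 (median 0.04).

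In the fit, the log2 fold change of high-grade tissue against mild dysplasia was positive for 51 of 51 genes (median 1.46). Of these genes 0 passed the adjusted threshold, which 0.134% of all genes passed in that direction. At an unadjusted p under 0.05, 31 of the 51 genes were higher, beside 12.3% of all genes, and DESeq2 called 5 (5.04% of all genes higher). The largest values were those of Cenpe (2.83, SE 0.90, edgeR adjusted p = 0.0917), Bub1b (2.80, SE 0.91, edgeR adjusted p = 0.0954) and Birc5 (2.75, SE 0.83, edgeR adjusted p = 0.0825). The smallest were those of Rrm1 (0.08, SE 0.38), Ccne2, cyclin E2 (0.09, SE 0.40), and E2f1 (0.17, SE 0.39). This comparison and that of mild dysplasia with normal tissue share the mild samples. With the thymocyte score in the model the median fell to 0.31, with 40 values positive and 0 at an unadjusted p under 0.05 (11% of all genes higher). Without the 9 samples with high Rag1 the median was 0.19, with 32 positive and again 0 (5.71% of all genes), and with whole lung samples alone it was 1.36 with 0 (4.69%). In these groups summed thymocyte markers ran from 5.39 to 79.5 CPM in mild and from 5.83 to 3524 CPM in high-grade samples, and 7 of 7 thymocyte and 8 of 8 T cell markers had positive log2 fold changes without passing the adjusted threshold. Summed ciliated cell markers were at 53.9 to 257 CPM in mild and 3.37 to 107 CPM in high-grade samples, and the part of either cell type in the result was not tested beyond these fits.

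**Figure D3:**
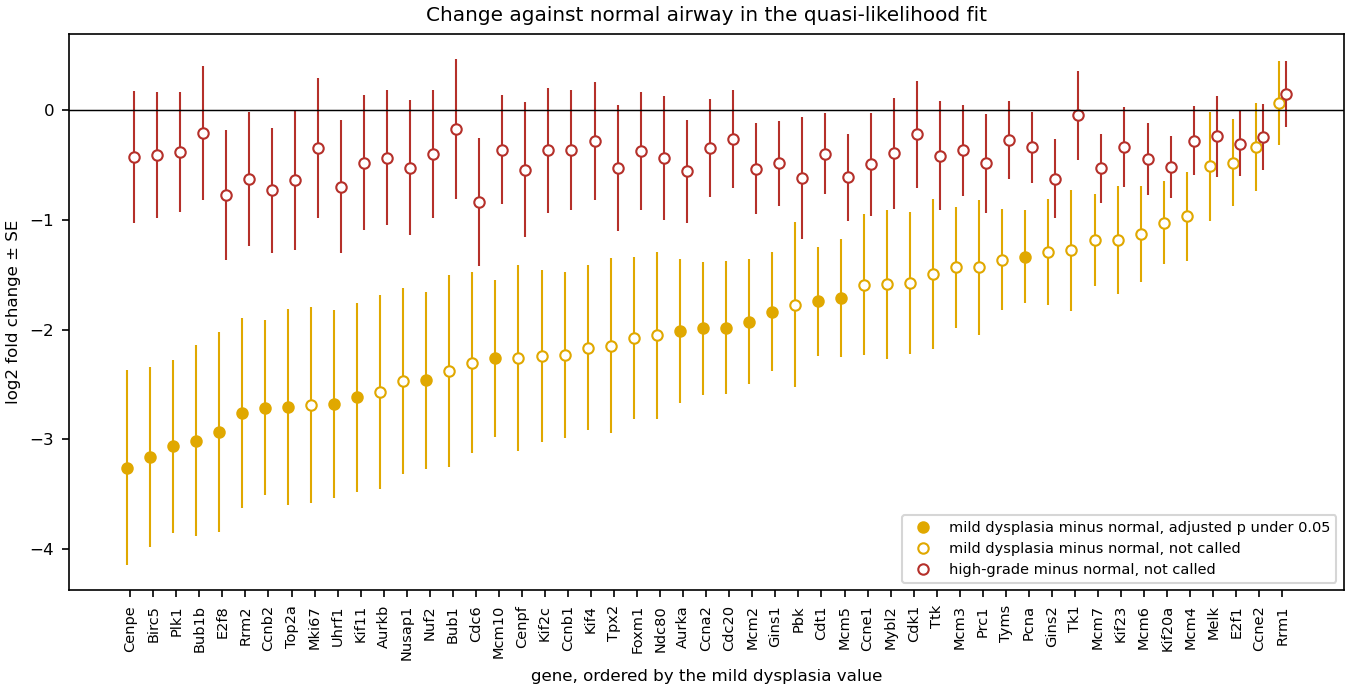
Log2 fold change ± SE of each of the 51 genes (x axis, ordered by the mild dysplasia value) in mild dysplasia (yellow) and high-grade tissue (red) against the same 7 normal samples; filled points passed an adjusted p of 0.05. The 20 filled points are all yellow and run from -3.26 (Cenpe) to -1.34 (Pcna), and the red points lie between -0.84 and 0.14.

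Other genes of the pathway, taken from lists by role, were counted in the same fit. In mild dysplasia 11 of 20 other mitotic genes and 5 of 20 other replication genes were lower and 0 were higher, where 7.24% of all genes were lower, among them Cenpa, the centromeric histone (-2.29), Mad2l1 of the spindle checkpoint (-1.75), Cdc45 of the active helicase (-1.95) and Lig1, the ligase that joins replicated DNA (-1.77). Of 10 CDK inhibitors and pocket proteins, Cdkn2d was lower (-2.65, SE 0.59, edgeR adjusted p = 0.0161). Cdkn1a, the p21 inhibitor of cyclin-dependent kinases, had a log2 fold change of 1.90 (SE 0.63, edgeR adjusted p = 0.0511) and Cdkn2a, which encodes p16 and p19ARF, one of 1.59 (SE 0.99, edgeR adjusted p = 0.269). Ccnd1, cyclin D1, was higher in mild dysplasia at 7.69 to 9.21 log2 CPM against 5.03 to 8.13 in normal tissue (1.88, SE 0.57, edgeR adjusted p = 0.0364). Cyclin D3 (Ccnd3, -2.60), E2f2 (-3.32) and E2f4 (-0.97) were lower. In high-grade tissue 0 genes of these 4 lists were called, and Cdkn1a, Cdkn2a and Ccnd1 had log2 fold changes of 1.58 (SE 0.45), 1.85 (SE 0.92) and 1.10 (SE 0.41).

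Genes of thymocytes, the T cell precursors that divide in the thymus, differed between the groups in the same direction as the cell cycle genes. Rag1, the recombinase of lymphocyte precursors, was at 1.23 to 10.02 log2 CPM in the 7 normal samples and at -2.22 to -0.21 in the 5 mild samples, without overlap, and at -2.22 to 9.02 in high-grade tissue. A level of -2.22 stands for 0 counts, which Rag1 had in 2 mild and 6 high-grade samples. The summed CPM of 8 thymocyte markers was 110 to 5096 in normal, 5.39 to 79.5 in mild and 5.83 to 3524 in high-grade samples, and Ptcra, which defines the pre-T cell stage, was at 0 in all 5 mild samples and in 2 normal samples. In mild dysplasia 8 of 8 T cell markers and 7 of 7 tested thymocyte markers were called lower, and 1 of 8 B cell markers, beside 7.24% of all genes. Summed T cell markers ran from 181 to 4373 CPM in normal, from 26.2 to 217 in mild and from 12.1 to 2855 in high-grade samples. In bulk samples, fewer cells of a type and less RNA per cell cannot be told apart. Thymus was not among the tissues named in the labels.

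The cell cycle genes were compared with this content directly, with a lymphoid score, the mean z-score over the T cell, thymocyte and B cell markers, added to the model beside grade. Of the 51 genes, 42 were higher with a higher score and 0 lower, where 9.58% of all genes were higher; the median slope was 0.88 log2 units per unit of score, against -0.04 over all genes. The steepest slopes were those of Top2a (1.49, SE 0.29, edgeR adjusted p = 0.00151), Mki67 (1.48, SE 0.29, edgeR adjusted p = 0.00158), Uhrf1 (1.45, SE 0.28, edgeR adjusted p = 0.00136) and Cdc6 (1.39, SE 0.27, edgeR adjusted p = 0.0015). The 9 genes without a call were Rrm1, Tk1 (thymidine kinase), Mybl2 (B-MYB), Cdk1, Ccnb1, Melk, Cdc20, Kif23 and Kif4. The count fell to 19 without moderate to severe dysplasia replicate 4 and to 27 without normal replicate 9, to 5 with LCM samples alone (3.37% of all genes) and to 0 with whole lung samples alone (0.633% of all genes, and 26 of the 51 at an unadjusted p under 0.05). It was 0 (1.05% of all genes) without the 9 samples with Rag1 above 5 log2 CPM described below. Of the CDK inhibitors and pocket proteins, 5 were higher and 3 lower, with Cdkn1a at -0.74 (SE 0.25, edgeR adjusted p = 0.0444) and Cdkn2a at -1.47 (SE 0.38, edgeR adjusted p = 0.0118).

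The marker lists behaved differently when scored alone. A thymocyte score gave 47 of 51 genes higher (8.98% of all genes), a T cell score 45 (9.47%) and a B cell score 0 (2.10%), the last with 0 higher and 1 lower at an unadjusted p under 0.05. Slopes for different scores were not tested against each other. Normal replicate 8 had the highest summed B cell markers (1944 CPM) and 331 CPM of thymocyte markers, and its mitotic mean was -0.86. Severe dysplasia replicate 4, with 1471 CPM of B cell markers and Rag1 at -2.22, had a mitotic mean of 0.06.

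Of the 25 samples, 9 had Rag1 above 5 log2 CPM: 5 normal samples and 4 of moderate to severe dysplasia, from both strains and both sample types. The 6 highest mitotic means, 1.08 to 1.98, all belonged to these samples, and the order ran across grades: moderate to severe dysplasia replicate 4 (1.98), normal replicates 9, 6 and 3 (1.90, 1.84 and 1.72), then moderate to severe dysplasia replicates 10 and 8 (1.34 and 1.08). Neighbours among these 6 differed by 0.07 to 0.38. Among the other 16 samples, the 4 highest mitotic means were those of severe dysplasia replicate 2 (0.66), carcinoma in situ replicate 2 (0.18), SCC tumor replicate 1 (0.09) and severe dysplasia replicate 4 (0.06). These 4 were all the severe, in situ and tumor samples of the series that passed, and their Rag1 was at -2.22 in 3 and at 1.16 in severe dysplasia replicate 2. Severe dysplasia replicate 2 had the lowest median TIN of the 25 samples (21.71) and 2766865 summed expected counts. Median TIN was 33.92 in severe dysplasia replicate 4, 55.85 in the carcinoma in situ and 68.75 in the SCC tumor. Next came moderate to severe dysplasia replicate 7 (-0.22) and normal replicate 7 (-0.27), and the lowest were mild dysplasia replicate 2 (-1.69) and moderate to severe dysplasia replicate 9 (-2.09). The cutoff of 5 was chosen after the data were seen, and this order was not tested.

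**Figure D4:**
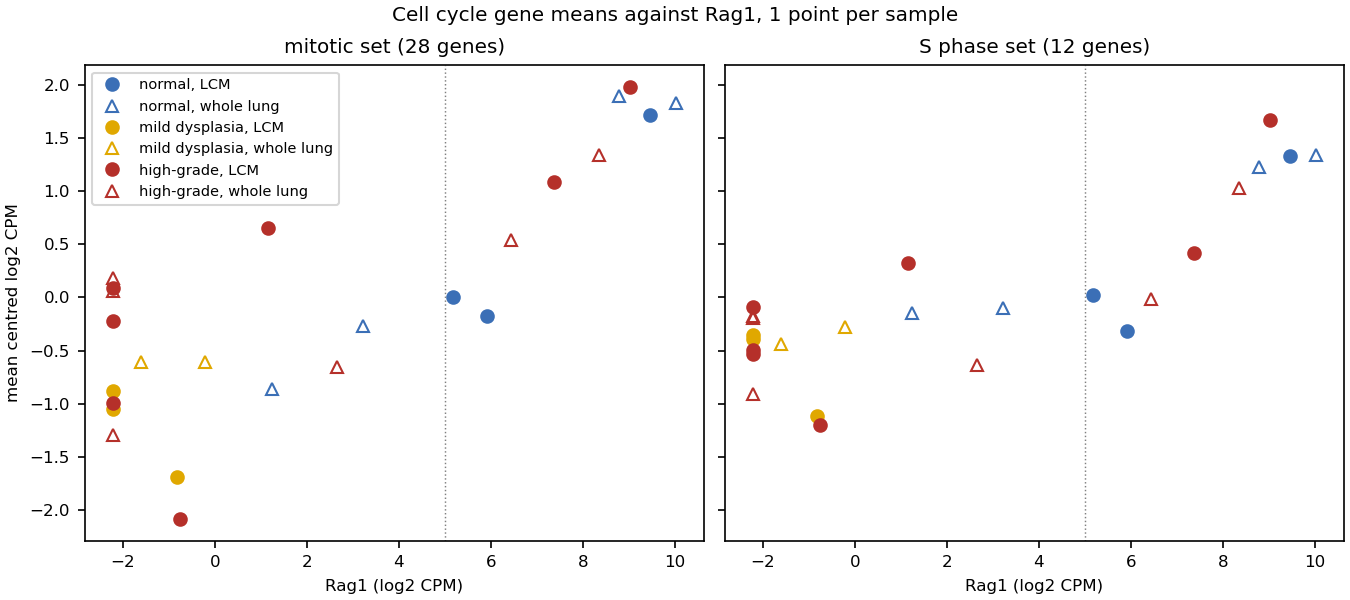
Mean centred log2 CPM of the mitotic set (left) and the S phase set (right) against Rag1 log2 CPM, 1 point per sample, coloured by grade, with filled circles for LCM, open triangles for whole lung and a dotted line at 5. Samples right of the line rise together to 1.98 and 1.67, and among those left of it the highest mitotic mean is that of severe dysplasia replicate 2 (0.66).

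With the thymocyte score in the model, 0 of the 51 genes were called in mild dysplasia (1.88% of all genes lower) and their median log2 fold change was -0.02, with 24 values positive. Without the 9 samples with high Rag1, 0% of all genes were called lower, so that the 0 calls among the 51 are the background. In that fit 1 of the 51 was lower at an unadjusted p under 0.05 (10.4% of all genes), and the median was -0.03. It rests on 2 normal samples, replicates 7 and 8, both SWR/J whole lung, so no A/J or LCM normal sample is left. Replicate 7 had a median TIN of 28.9, the lowest of the normal group. Replicate 8 had the lowest summed epithelial markers of the 25 samples (37.84 CPM). Mki67 changed by 0.39 with the thymocyte score and by 0.47 without high Rag1, in place of -2.68. Since every mild sample had Rag1 below every normal sample, thymocyte content and mild grade cannot be told apart in this contrast.

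The order of grades was also tested as a rank, from 0 for normal to 4 for carcinoma in situ and SCC tumor. In that fit 0 of 51 genes were called by edgeR and 0 had an unadjusted p under 0.05, while 0.262% of all genes were called; 48 slopes were negative, with a median of -0.17 log2 units per grade. With LCM samples alone 42 slopes were positive (median 0.12), and with whole lung samples alone 51 were negative (median -0.35). With the thymocyte score added, 50 of 51 slopes were positive (median 0.28) and 26 were higher at an unadjusted p under 0.05, as were 3.52% of all genes. Of those 26 genes 19 belonged to the mitotic set and 3 to the S phase set, and 0 passed the adjusted threshold. Without the 9 samples with high Rag1 the median was 0.30, 47 slopes were positive, 15 reached an unadjusted p under 0.05 (2.24% of all genes) and 0 were called.

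S phase and mitotic genes were set against each other within each sample by subtracting the centred mitotic mean from the centred S phase mean. The difference was positive in 5 of 5 mild samples, at 0.49, 0.58, 0.17, 0.33 and 0.69 in replicates 1 to 5. It was positive in 3 of 7 normal samples, which ran from -0.67 to 0.72 (median -0.14), and in 4 of 13 high-grade samples, which ran from -0.66 to 0.89 (median -0.28). In severe dysplasia, carcinoma in situ and the SCC tumor the 4 values were negative, between -0.37 and -0.18. The largest positive differences belonged to samples with low mitotic means, moderate to severe dysplasia replicate 9 (0.89) and normal replicate 8 (0.72). Every sample with a mitotic mean at or below that of normal replicate 7 (-0.27), of any grade, had a positive difference. Mitotic means spanned more (-2.09 to 1.98) than S phase means (-1.20 to 1.67), so a sample low in both sets tends to a positive difference. Whether grade adds to this was not tested. In the mild dysplasia fit the median log2 fold change was -1.38 over the S phase set, with 6 of 12 genes lower, and -2.24 over the mitotic set, with 11 of 28 lower. The difference between the sets is a description, with no test.

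**Figure D5:**
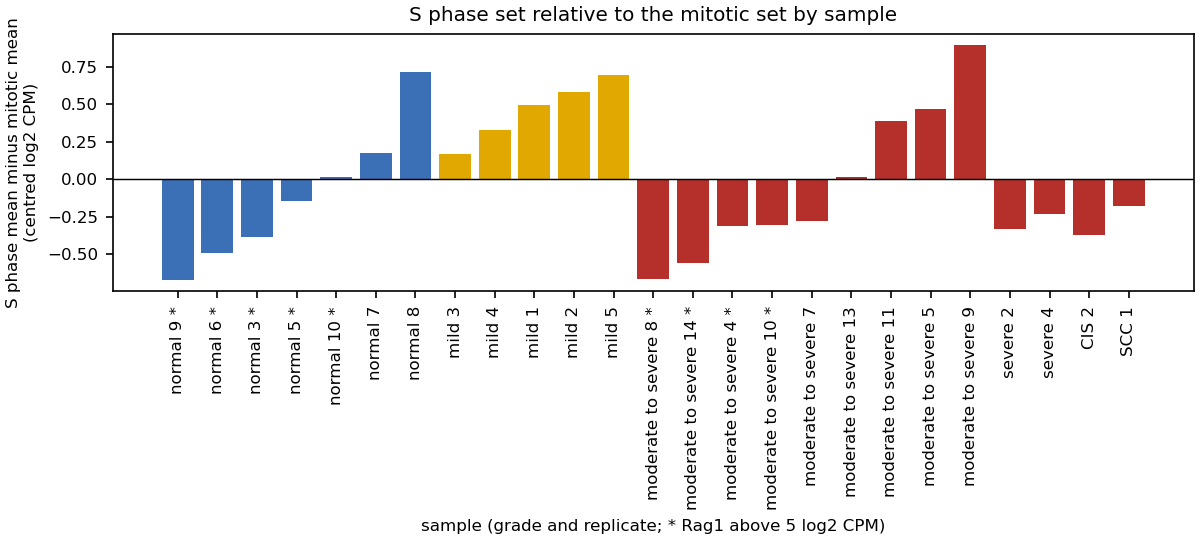
Centred S phase mean minus centred mitotic mean (log2 units, bars from 0) in each of 25 samples, grouped by grade and coloured blue for normal, yellow for mild and red for high-grade, with an asterisk for Rag1 above 5 log2 CPM. All 5 mild bars are positive, from 0.17 to 0.69, as are those of other samples with a mitotic mean at or below -0.27. The 4 bars of severe dysplasia, carcinoma in situ and SCC tumor are negative.

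Few of these genes differed by sample type or strain. E2f1 was the one gene called between LCM and whole lung samples, lower in LCM (log2 fold change -0.78, SE 0.24, edgeR adjusted p = 0.0368), where 8.93% of all genes were lower. Its levels were 1.86 to 3.81 log2 CPM in 13 LCM samples and 2.89 to 4.53 in 12 whole lung samples, which overlap. The call was lost in 11 of the 25 fits that left out a single sample. Between A/J and SWR/J 0 genes were called (0.992% of all genes) and 2 were lower in A/J at an unadjusted p under 0.05, Mcm5 (-1.17, SE 0.47) and Mcm2 (-1.18, SE 0.49), beside 7.68% of all genes. Of the 51 values 48 were negative, with a median of -0.58. That direction turned in other fits, with 33 values positive with the thymocyte score in the model (median 0.09), 33 without the 9 samples with high Rag1 (median 0.12), 42 with the lymphoid score (median 0.34) and 31 with whole lung samples alone (median 0.06), whereas with LCM samples alone 51 were negative (median -1.73). The difference of the high-grade effect between LCM and whole lung gave 0 calls for these genes, 0 at an unadjusted p under 0.05, and 0% of all genes called.

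Expression per length ranked the genes apart from their changes. As CPM per kilobase of exon in the GENCODE models of mm9, the median over 25 samples was 39.2 for Pcna, 13.2 for Rrm1, 10.4 for Mcm7 and 8.98 for Mcm6. It was 5.16 for Cdk1, 4.82 for Mki67, 4.28 for Top2a and 4.26 for Birc5, and the lowest were 0.78 for Cenpe and 0.49 for Mcm10. The 4 highest were S phase genes, but Cdc20, a mitotic gene, was next at 8.94, and Mcm10, an S phase gene, was the lowest.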

How the data were processed

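RNA was sequenced from 40 mouse lung samples as single-end 50-nucleotide reads. The authors used Trimmomatic, mapped to the mm9 genome by STAR in 2 passes, and quantified Ensembl genes by RSEM, whose expected counts they deposited; the annotation version is not given in the sources used here. Of the values, 88.8% are whole numbers, and they were rounded for testing. The 25 samples that passed quality control were used, with groups from the grade labels; 15 were left out of every comparison. Symbols came from a table that matched all 37310 gene identifiers.

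Genes with a nonzero interquartile range of log2 CPM and a sum above 1 (TMM, prior count 2) were kept, which left 15630. All grades entered 1 edgeR 4.0.16 quasi-likelihood fit (robust, R 4.3.3) adjusted for sample type, strain and median TIN, with Benjamini-Hochberg adjustment over all genes; SE is the log2 fold change divided by the root of F. DESeq2 1.42.0, RLE scaling, other filters, subsets of samples and leaving out each sample were alternatives. The tests were checked on simulated counts. The 51 genes, the lists and the tests were chosen with earlier results of these data known. Named genes were those called, up to 20 by size, 10 genes fixed as 1 per role, the extreme 3 each way where few were called, and Cdkn1a, Cdkn2a and Ccnd1; Birc5 was also given by sample because its groups did not overlap. Plk1 and Cenpe were given by sample after their values were seen. Other pathway genes were named as examples of those called. Depth was 2667387 to 16534728 summed expected counts per sample, and a low gene is measured less precisely in the shallow samples. Single-end reads without molecular identifiers give intervals that cover counting error only. No pairs of samples had identical columns. Counting was not strand-specific in the kit, so overlapping genes on opposite strands cannot be told apart.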

Additional observations from a re-analysis of the deposited data

Results flagged for a closer look

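Of 36 checks for a sample far from the rest of its group, chance gives about 1 in 20, and 3 stood out, all from mild dysplasia replicate 2. It lay apart from the other 4 mild samples in Mcm6 (4.09 log2 CPM), in Rrm2 (2.31 log2 CPM) and in the mean of the S phase set (-1.12). Mcm6 and Rrm2 belong to that set, so these 3 checks overlap and cannot be set against 1 in 20 as separate checks.

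SCC tumor replicate 2, a whole lung sample from an A/J mouse that did not pass quality control, held 262890 expected counts and entered no comparison. CPM in this paragraph is relative to the library total without TMM scaling, so it differs from the log2 CPM levels given above. The Ccnb1 level of that sample was 45.7 CPM (12 counts, 95% exact Clopper-Pearson interval 23.6 to 79.7), against a highest value of 43.97 CPM in the normal samples that passed. Its Mcm6 level was 141 CPM (37 counts, interval 99.1 to 194.0), against 109 CPM. Both intervals contain the normal value, and Rag1 had 1 count in that sample.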

How the results depend on the processing

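In mild dysplasia against normal, 20 genes were called in the report's fit (7.24% of all genes lower), 39 by DESeq2 (12.7%) and 8 with no gene filter (3.28%). The count was 0 without strain and sample type in the model, 0 with LCM samples only and 0 with whole lung samples only (0% of all genes were called lower in each of these 3 fits). It was 3 without the samples whose labels disagree (3.22% of all genes lower) and 0 with the lymphoid score as a covariate (0.851%). With 2 alternatives chosen after seeing the data, the thymocyte score as a covariate and leaving out the 9 samples with Rag1 above 5 log2 CPM, it was 0 and 0 (1.88% and 0% of all genes). Leaving out single samples gave 0 to 32, with 1 without mild dysplasia replicate 2 or 4 or normal replicate 6, 2 without mild dysplasia replicate 3, 3 without mild dysplasia replicate 5, 4 without mild dysplasia replicate 1, 8 without moderate to severe dysplasia replicate 4 and 32 without normal replicate 5 or 7. The share over all genes is not given here for the fits that left out a single sample, so their counts cannot be set against it. RLE scaling gave 21 (8.02% of all genes lower). Why the counts moved was not tested.

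Of all 51 mild dysplasia log2 fold changes, 1 was positive in the report's fit, 13 with the lymphoid score, 24 with the thymocyte score and 21 without high Rag1. Of the genes named in the text, those that turned positive were Mki67 (0.035 with the lymphoid score, 0.39 with the thymocyte score, 0.47 without high Rag1), Top2a (0.024, 0.38 and 0.073), E2f1 (0.31, 0.35 and 0.21), Cdk1 (0.12 with the thymocyte score and 0.012 without high Rag1), Rrm2 (0.047 and 0.19) and Uhrf1 (0.32 and 0.12), and without high Rag1 alone for Mcm10 (0.12), Nuf2 (0.069) and Plk1 (0.30). Of the 51 lymphoid slopes, 28 were negative without high Rag1 (median -0.06), among the named genes those of Ccnb1 (-0.31), Pcna (-0.095), Rrm2 (-0.41) and E2f1 (-0.22).

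High-grade against mild dysplasia gave 5 calls by DESeq2 and 0 to 4 when single samples were left out, the 4 without moderate to severe dysplasia replicate 11. Its median log2 fold change over the 51 genes fell from 1.46 to 0.48 with the lymphoid score, 0.31 with the thymocyte score and 0.19 without high Rag1, and the 31 genes at an unadjusted p under 0.05 to 1, 0 and 0. LCM against whole lung gave 0 calls with no gene filter, without the discordant labels and without high Rag1 (4.39%, 5.18% and 1.74% of all genes lower). With the lymphoid score as a covariate 1 gene was higher in LCM, where 2.69% of all genes were higher. With the thymocyte score 3 were called, Mcm7 and Tyms higher (6.08% of all genes) and E2f1 lower (11% of all genes). Single samples left out gave 0 to 1. The lymphoid score gave 5 calls with LCM samples only, 0 with whole lung samples only, 0 for the B cell score, 0 without high Rag1 and 19 to 43 when single samples were left out. High-grade against normal, strain, rank of grade and the difference between sample types gave 0 calls in every setting run. No paired analysis was possible because replicate numbers were given in accession order and the labels link no samples.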
